A study of Ovis aries with 40 samples.

Results

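Proximal lung at 120 days of gestation was compared with proximal lung at 100 days in sheep, over both genotypes together with genotype as a covariate. The comparison held 8 of the 40 libraries of the series, which covers 2 lung regions and 5 time points, with 4 libraries at day 100 and 4 at day 120. At each day, 2 libraries came from wild-type (WT) fetuses and 2 from *CFTR*-/- (CF) fetuses, all of the American Romney breed. WT fetuses were bred, whereas CF fetuses were cloned by nuclear transfer from 1 male fibroblast line edited in *CFTR* exon 2, so the CF libraries share 1 nuclear genome and differ from WT in both genotype and cloning. Both WT day 100 libraries carry the same animal name in the sample labels. They were kept as 2 libraries, and p-values measure only the spread between these samples, which may be partly technical. CF day 100 replicate 2 carries the same animal name as a WT day 65 library, and each was placed by its title.

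Within this interval the fetal lung passes from a branching, dividing tube system toward gas-exchange tissue. Epithelial tip cells that respond to FGF and carry *SOX9* give rise to alveolar type 2 cells, which make surfactant, and alveolar type 1 cells, the thin cells of the gas barrier. The proximal region holds the larger airways too, lined by basal, secretory and ciliated cells and held open by cartilage rings. Bulk RNA cannot tell fewer cells of a type apart from less RNA per cell, and this holds for every gene below.

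The 4 WT libraries had 26617761 to 38635126 counted reads and the 4 CF libraries had 89854181 to 101116915. *CFTR*, the targeted chloride channel, had normalized read counts (CPM, scaled to library size with TMM normalization over the 8 libraries) of 25.0 and 21.3 in WT and 16.3 and 12.8 CPM in CF at day 100. The day 120 values were 12.5 and 11.0 CPM in WT and 8.70 and 4.94 CPM in CF. The groups by day did not overlap within a genotype, but the change (log2 fold change -1.03, SE 0.24) did not pass the test, with an adjusted p of 0.128 (-0.88 and 0.0444 without CF day 120 replicate 2, introduced next). A count over the whole gene does not show an edit in exon 2, so it is no check of the knockout.

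CF day 120 replicate 2 stood apart from the other 7 libraries. Its rank correlations with them were 0.918 to 0.956, against up to 0.983 among the others. It had 654 tested genes at 0, against 98 to 193 in the other CF libraries and 356 to 554 in the shallower WT ones, and 0.942% mitochondrial reads, against 1.54% to 2.26% in the other libraries. Many, but not all, of the counts below that change with its removal are also given without it.

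Of 18689 genes tested, 86 (0.46%) passed an adjusted p of 0.05 with a fold change of at least 1.5 (a log2 fold change of 0.58) in edgeR's quasi-likelihood test, and these are the genes said to rise or fall here. The 45 genes that rose (0.241%) had a median log2 fold change of 2.08 and the 41 that fell (0.219%) one of -1.51, against 0.01 over all genes tested. At the stricter limit of 0.001 used for differentially expressed genes (DEGs) in this series, no gene passed, and the smallest adjusted p was 0.0196. DESeq2 gave 357 DEGs at that limit and 942 genes at 0.05. At an unadjusted p under 0.05, edgeR gave 1976 genes (10.6%), and 3003 (16.2%) without CF day 120 replicate 2.

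The number of genes past 0.05 depended on each library. It was 0 without either WT day 100 library, without either CF day 100 library, and with both WT day 100 libraries summed as 1 sample, although 1405 to 1804 genes then had an unadjusted p under 0.05. It was 2 without WT day 120 replicate 1 (*CYP1A1* and *HSD17B13*), 7 without WT day 120 replicate 2, 27 without CF day 120 replicate 1 and 567 (3.06%) without CF day 120 replicate 2, of which 326 (1.76%) were higher and 241 (1.3%) lower. All 86 genes passed without CF day 120 replicate 2. Of the 86 genes, 25 passed without CF day 120 replicate 1.

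Each day 120 library, set against the day 100 mean of its own genotype, held all 45 higher genes above and all 41 lower genes below that mean. The medians of the higher genes were 2.16 and 2.01 in WT replicates 1 and 2, 2.25 in CF replicate 1 and 1.93 in CF replicate 2. Those of the lower genes were -1.50, -1.40, -1.86 and -1.55 in the same order. All 4 libraries entered the test that chose these genes, so the counts describe the calls. In 43 of the 45 higher genes all 4 day 120 libraries lay above all 4 day 100 libraries, as they did in 2.94% of all genes. All 41 lower genes had the opposite order, which 3.52% of all genes had.

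**Figure D1:**
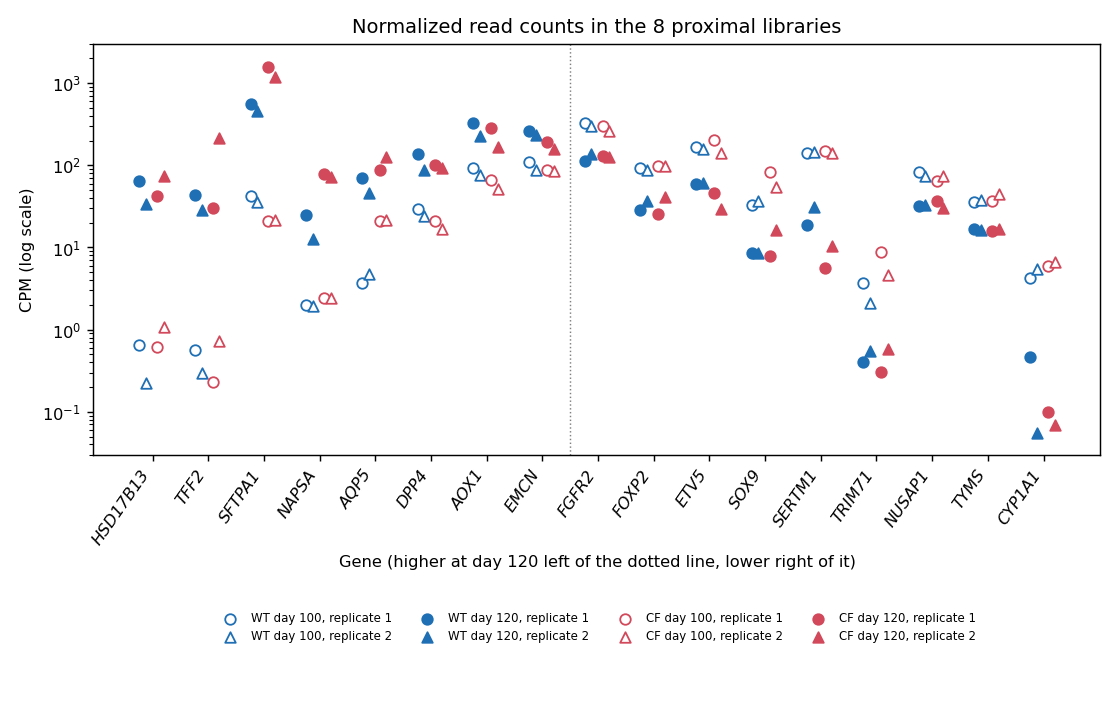
Normalized read counts (CPM, log scale) of genes that rose (left of the dotted line) or fell (right of it), with 1 point for each of the 8 proximal libraries. *SFTPA1* lay between 21.0 and 42.3 CPM in the day 100 libraries and between 459 and 1593 CPM at day 120, whereas *SOX9* lay between 32.6 and 83.7 CPM at day 100 and between 7.94 and 16.5 CPM at day 120.

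The surfactant genes *SFTPA1* and *NAPSA* were among those with the largest rises. *SFTPA1* (chromosome 25, 35170066 to 35174178, Oar_v4.0) encodes surfactant protein A, a lectin of surfactant and airway defence. It had 42.3 and 35.9 CPM in WT and 21.0 and 21.7 CPM in CF at day 100, and 553 and 459 CPM in WT and 1593 and 1184 CPM in CF at day 120. Both CF day 120 libraries were above both WT ones, and the shared rise was 4.86 (log2, SE 0.54, adjusted p = 0.0323). *NAPSA* (chromosome 14, 55431050 to 55440129), the aspartic protease that processes surfactant precursors, had 1.92 to 2.42 CPM in all 4 day 100 libraries. By day 120 this was 24.9 and 12.7 CPM in WT and 79.3 and 71.3 CPM in CF, a rise of 4.13 (SE 0.44, adjusted p = 0.0323).

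The other surfactant proteins did not pass with all libraries. *SFTPB*, which spreads the surfactant film, had 557 to 779 CPM at day 100 and 856 to 1932 CPM at day 120 (log2 fold change 1.05, adjusted p = 0.0825). *SFTPD*, a second lectin, had 74.7 to 111 CPM at day 100 and 150.4 to 635 CPM at day 120 (1.69, adjusted p = 0.108). Neither gene's libraries overlapped between days, and both passed without CF day 120 replicate 2, with adjusted p-values of 0.0246 and 0.0191. Of 33 tested genes of the surfactant and type 2 list, 2 rose and none fell. In this list 19 genes had a positive change and 14 a negative one, and the list median was 0.16. Every day 120 library lay above every day 100 library in 8 of the genes, and below in 3. Against the day 100 mean of its genotype, the list median was -0.27 in CF day 120 replicate 2. It was 0.12 to 0.42 in the other day 120 libraries. When CF day 120 replicate 2 was left out, 7 rose and none fell, with a median of 0.20.

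Of 28 type 1 genes tested, 3 rose and the median was 0.80. *AQP5*, a water channel of type 1 cells and glands, had 3.73 and 4.81 CPM in WT and 21.2 and 21.5 CPM in CF at day 100. The day 120 levels were 70.1 and 45.5 CPM in WT and 86.9 and 126 CPM in CF, and it rose by 3.03 (SE 0.36, adjusted p = 0.0323). The genotypes differed in level at day 100, yet every day 120 library was above every day 100 library. *SPOCK2*, a matrix proteoglycan, had 110.2 to 206 CPM at day 100 and 458 to 582 CPM at day 120, a rise of 1.78 (adjusted p = 0.0330). *CAV2*, a coat protein of caveolae, had 212 to 271 CPM at day 100 and 671 and 628 CPM in WT and 574 and 368 CPM in CF at day 120, a rise of 1.23 (adjusted p = 0.0492). Without CF day 120 replicate 2, 12 of the 28 type 1 genes rose and none fell. *SCEL*, which encodes a cornified envelope precursor, lay just outside the limit at 2.97 (adjusted p = 0.0552).

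Oxidising enzymes moved in both directions. *HSD17B13* (chromosome 6, 101692693 to 101709646), a lipid-droplet dehydrogenase, had 0.222 to 1.06 CPM at day 100. In the day 120 libraries it had 64.3 and 33.8 CPM in WT and 42.4 and 73.2 CPM in CF, a rise of 6.41 (SE 0.48, adjusted p = 0.0196). No library of day 120 came near those of day 100. *FMO1*, a flavin-containing monooxygenase, had 3.45 and 2.88 CPM in WT and 0.948 and 1.08 CPM in CF at day 100, and 30.3, 16.5, 14.2 and 11.8 CPM at day 120 in the same order of genotypes, a rise of 3.28 (adjusted p = 0.0233). *AOX1* (chromosome 2, 201799725 to 201869143), the aldehyde oxidase, had 93.6 and 76.2 CPM in WT and 66.4 and 51.8 CPM in CF at day 100. At day 120 it had 323 and 227 CPM in WT and 283 and 169.5 CPM in CF, a rise of 1.82 (SE 0.23, adjusted p = 0.0325).

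*CYP1A1* (chromosome 18, 32798078 to 32821218), the monooxygenase induced through the aryl hydrocarbon receptor, fell. It had 4.24 and 5.47 CPM in WT and 5.97 and 6.57 CPM in CF at day 100, and 0.467 and 0.0551 CPM in WT and 0.0983 and 0.0689 CPM in CF at day 120. The fitted log2 fold change was -5.21 (SE 0.73, adjusted p = 0.0367), and its size rests on very low counts at day 120. Of the 28 genes tested on the list of aldehyde and xenobiotic oxidation, these were the 3 that rose and the 1 that fell, and the median was 0.25. The median was 0.07 without CF day 120 replicate 2, and *MGST1*, a microsomal glutathione transferase, rose too in that fit (0.84).

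*TFF2* (chromosome 1, 260517767 to 260521339), a trefoil peptide of mucus, had 0.227 to 0.723 CPM at day 100. Levels at day 120 were 43.1 and 28.5 CPM in WT and 30.3 and 215 CPM in CF, with CF replicate 2 far above the other 3. The rise was 7.26 (SE 0.87, adjusted p = 0.0323), and 6.18 (adjusted p = 0.00101) without that library. *TFF2* was the 1 airway secretory gene of 26 tested that rose, and without that library *PIGR*, the receptor that carries immunoglobulin A, rose too (3.01).

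Genes of varied function made up the remaining rises. *DPP4*, a membrane peptidase that cuts peptide hormones and chemokines, had 16.7 to 29.5 CPM at day 100 and 88.4 to 136 CPM at day 120, a rise of 2.22 (SE 0.20, adjusted p = 0.0233). *DPEP1*, a dipeptidase that acts on leukotrienes, rose by 4.45 from 0.0566 to 0.425 CPM at day 100 to 1.35 to 9.47 CPM at day 120 (adjusted p = 0.0436). *ACSL6*, which activates long-chain fatty acids, rose by 3.33 (adjusted p = 0.0480), with 0.807 to 2.07 CPM at day 100 and 7.16 to 24.5 CPM at day 120.

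*HIGD1B*, known as a pericyte marker, had 0.861 to 1.67 CPM at day 100 and 15.6 and 13.1 CPM in WT and 4.77 and 28.4 CPM in CF at day 120 (rise 3.69, adjusted p = 0.0436). The CF day 120 replicates differed more in *HIGD1B* than the WT ones did, and the rise was 2.89 without replicate 2. *EMCN*, endomucin of capillary and venous endothelium, had 86.3 to 111 CPM at day 100 and 157 to 264 CPM at day 120, a rise of 1.17 (adjusted p = 0.0367). It was the 1 of 50 endothelial genes to rise, although 41 of the 50 had a positive change, with a median of 0.48. Without CF day 120 replicate 2, 9 endothelial genes rose and none fell. *THBD*, thrombomodulin, rose by 1.20 (adjusted p = 0.0367), from 62.5 to 92.2 CPM to 156 to 243 CPM.

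*COL5A3*, a chain of type V collagen, was the 1 of 54 collagen and matrix genes to rise (1.62, adjusted p = 0.0398), and 1 of 5 to do so without CF day 120 replicate 2, with 2.47 to 3.29 CPM at day 100 and 8.46 ± 1.05 CPM (SD, n = 4) at day 120. *LAPTM5*, a lysosomal protein of blood-forming lineages, had 76.6 to 90.7 CPM at day 100 and 167 to 218 CPM at day 120. It rose by 1.24 (adjusted p = 0.0323), as the 1 of 31 macrophage and neutrophil genes that did, and without CF day 120 replicate 2 *CD74*, the invariant chain, rose too (1.05). *PKHD1L1*, a large membrane protein placed on the list for mesothelium, rose by 2.61 (adjusted p = 0.0323) from 1.06 to 2.54 CPM to 5.74 to 12.1 CPM, and was the 1 of 9 on that list to do so. *PDE6A*, a subunit of the rod phosphodiesterase, rose by 3.09 (adjusted p = 0.0323). Its exons overlap those of *HMGXB3* and *SLC26A2* by 436 and 1072 bases on the opposite strand. The strand setting of the counting is not stated, so reads of these genes cannot be told apart, and the same holds for *HIGD1B* with *EFTUD2* (396 bases), *TYMS* with *ENOSF1* (549 bases), *KCNIP4* (245 bases) and *CYP1A1* (20 bases) each with an uncharacterised gene, and, of genes that did not pass, *MUC15* with *ANO3* (244 bases) and *SCNN1A* with an uncharacterised gene (136 bases) and *ATP1B1* with *NME7* (146 bases).

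A few regulators of the branching tips fell. *SOX9* (chromosome 11, 57720431 to 57725439), a transcription factor of both tip progenitors and cartilage, had 32.6 and 37.2 CPM in WT and 83.7 and 53.9 CPM in CF at day 100. At day 120 it had 8.64 and 8.54 CPM in WT and 7.94 and 16.5 CPM in CF, a fall of -2.26 (SE 0.29, adjusted p = 0.0325). All 4 day 120 libraries were below all 4 of day 100. *FGFR2* (chromosome 22, 40345779 to 40447032), the receptor for FGF7 and FGF10, had 324 and 297 CPM in WT and 299 and 258 CPM in CF at day 100, and 113 and 136 CPM in WT and 129.9 and 125 CPM in CF at day 120. The day 120 libraries of both genotypes lay close together, and the change was -1.22 (SE 0.15, adjusted p = 0.0325).

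*ETV5*, a transcription factor induced by FGF signalling, had 141 to 203 CPM at day 100 and 60.0 and 61.8 CPM in WT and 45.6 and 29.2 CPM in CF at day 120 (-1.81, adjusted p = 0.0356). *FOXP2*, a repressor of the distal lung epithelium, had 86.5 to 99.4 CPM at day 100 and 25.9 to 41.0 CPM at day 120 (-1.50, adjusted p = 0.0325). *FGFR2*, *ETV5* and *FOXP2* were the FGF and tip progenitor genes that fell, of 33 tested, and none rose. *SOX9* is counted on the cartilage list instead. The median of the 33 was -0.09 (-0.02 without CF day 120 replicate 2), and 13 of them had a positive change. *SOX11*, a transcription factor, fell too when CF day 120 replicate 2 was left out (-1.35), and *FGF7*, a ligand of FGFR2, rose (1.29).

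Genes of the cell cycle were lower at day 120, and few passed singly. Of 72 mitosis genes tested, 7 fell and none rose, 70 had a negative change, and the median was -1.07 (-1.14 in WT and -0.99 in CF), against 0.01 over all genes. *NUSAP1*, which bundles spindle microtubules, had 65.3 to 83.6 CPM at day 100 and 32.3 and 32.5 CPM in WT and 37.1 and 30.5 CPM in CF at day 120 (-1.17, SE 0.15, adjusted p = 0.0325). *CCNB1*, cyclin B1, had 32.2 to 42.5 CPM at day 100 and 13.9 to 19.6 CPM at day 120 (-1.16, adjusted p = 0.0344). The other 5 were *CDCA8*, *KIF4A*, *CENPA*, *DLGAP5* and *SPAG5*, which serve the centromere and the spindle, with changes from -1.44 to -1.13. The list medians of the day 120 libraries were -1.10 and -1.18 in WT and -0.78 and -1.29 in CF replicates 1 and 2. Without CF day 120 replicate 2, 48 of the 72 fell and none rose.

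Of 58 DNA replication genes tested, 2 fell, 57 had a negative change, and the median was -0.80. *TYMS*, thymidylate synthase, had 35.5 to 44.2 CPM at day 100 and 15.8 to 16.8 CPM at day 120 (-1.23, adjusted p = 0.0325). *UHRF1*, which keeps DNA methylation through replication, had 62.9 to 95.0 CPM at day 100 and 22.5 and 21.9 CPM in WT and 47.6 and 23.9 CPM in CF at day 120 (-1.46, adjusted p = 0.0436). Its value in CF day 120 replicate 1 was well above the other 3. Without CF day 120 replicate 2, 20 of the 58 replication genes fell and none rose.

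*TRIM71*, an RNA-binding protein of early development and a let-7 target, was the 1 of 19 oncofetal genes to fall. It had 3.65 and 2.11 CPM in WT and 8.91 and 4.65 CPM in CF at day 100, and 0.305 to 0.574 CPM in all 4 day 120 libraries (-3.28, SE 0.49, adjusted p = 0.0436). *SALL4* (-1.79), a factor of stem cells, and the imprinted *MEST* (-0.90) fell too without CF day 120 replicate 2. *LECT1*, the cartilage glycoprotein chondromodulin, had 33.4 to 59.3 CPM at day 100 and 6.63 to 13.9 CPM at day 120 (-2.16, adjusted p = 0.0388). With *SOX9* it made up the 2 of 29 cartilage genes that fell, and the cartilage median was -0.22, or -0.46 without CF day 120 replicate 2. The 1 cartilage gene added without CF day 120 replicate 2 was *COL2A1*, described below.

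The remaining large falls were in genes of varied function. *SERTM1*, a small membrane protein, had 141 to 148 CPM in the 4 day 100 libraries, and 18.8 and 31.2 CPM in WT and 5.64 and 10.3 CPM in CF at day 120 (-3.35, SE 0.42, adjusted p = 0.0325). *HS6ST2*, which sulfates heparan sulfate, had 13.8 to 17.6 CPM at day 100 and 1.28 and 2.48 CPM in WT and 0.393 and 0.643 CPM in CF at day 120 (-3.98, SE 0.53, adjusted p = 0.0344). In both genes the CF libraries were below the WT ones at day 120. *PROM2*, a prominin of membrane protrusions, fell by 2.98, *HPSE2*, a heparanase-like protein, by 2.34, *BCL11A*, a zinc finger repressor, by 1.86, and *KCNIP4*, which binds potassium channels, by 1.81 on the log2 scale, with adjusted p-values of 0.0339, 0.0436, 0.0436 and 0.0367.

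**Figure D2:**
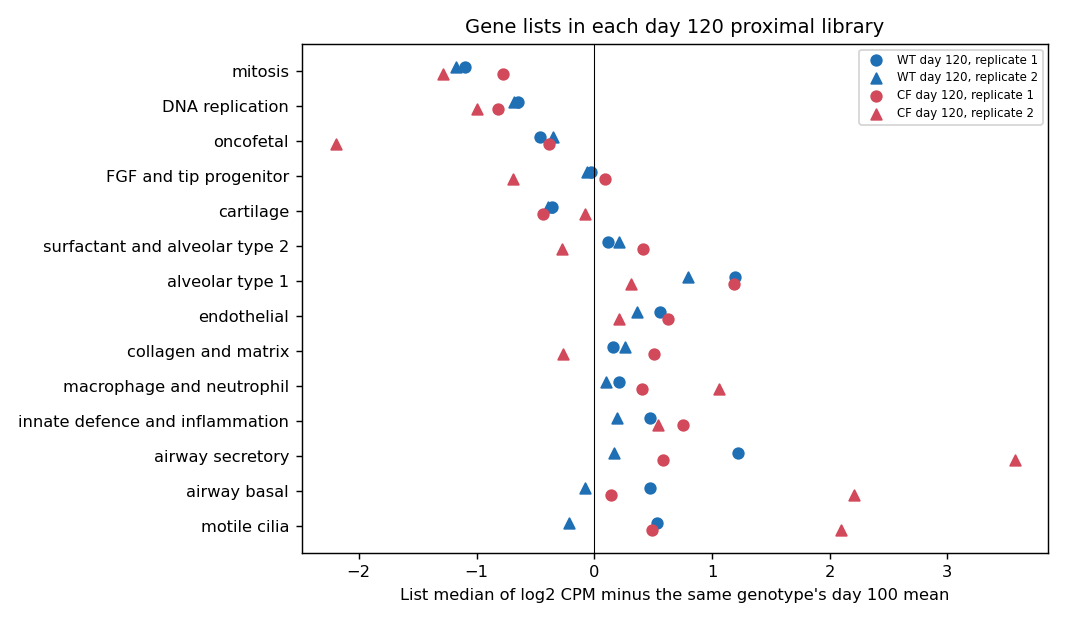
Median over each gene list of the log2 CPM of a day 120 library minus the day 100 mean of the same genotype, with 1 point per day 120 library. The mitosis medians lay between -1.29 and -0.78 in the 4 libraries, whereas the airway secretory medians were 1.22, 0.17 and 0.58 in the first 3 libraries and 3.57 in CF replicate 2.

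Airway lists were higher in CF day 120 replicate 2 than in the other libraries, and no ciliated or basal gene passed. Of 63 motile cilia genes tested, none rose or fell although 61 had a positive change, with a median of 0.86 (0.11 in WT and 1.59 in CF), or 0.24 without CF day 120 replicate 2. The list median was 2.10 in CF day 120 replicate 2 and -0.21 to 0.53 in the other 3 day 120 libraries. The summed level of the cilia genes was 420 to 987 CPM at day 100, 586 to 1031 CPM in 3 day 120 libraries and 1723 CPM in CF day 120 replicate 2. Of 21 basal cell genes none passed, with a median of 0.99. Without that library the median was 0.24, *BCAM*, an adhesion molecule, rose (1.07) and *SOX2*, a transcription factor of the airway lineage, fell (-0.96). The basal sum was 511 to 788 CPM at day 100, 689 to 1122 CPM in 3 day 120 libraries and 1344 CPM in that library. The airway secretory sum was 360 to 739 CPM at day 100, 681 to 1167 CPM in 3 day 120 libraries and 5932 CPM in that library, and the list median fell from 1.37 to 0.74 when it was left out.

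The defining secretory gene *SCGB3A2*, a secretoglobin of airway epithelium, had 70.7 and 8.17 CPM in WT and 1.28 and 2.44 CPM in CF at day 100. Those of day 120 were 329.6 and 29.0 CPM in WT and 78.9 and 3344 CPM in CF, so the replicates of a condition differed widely in both genotypes and the change of 5.98 (SE 2.72) did not pass (adjusted p = 0.501). *SCGB1A1*, the club cell secretoglobin, had 0.573 to 1.15 CPM at day 100, 2.51 and 0 CPM in WT and 20.4 and 92.3 CPM in CF at day 120 (adjusted p = 0.605). *BPIFB1*, an airway defence protein, and *WFDC2*, a protease inhibitor of airway secretions, had changes of 4.13 and 2.07 with adjusted p-values of 0.368 and 0.331. In *WFDC2* CF day 120 replicate 2 had 462 CPM and the other 3 day 120 libraries 46.4 to 69.7 CPM. The part of airway content in these differences was not tested.

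The remaining lists gave few or no calls. Of 43 genes of innate defence and inflammation, none passed, 35 had a positive change and the median was 0.53. Without CF day 120 replicate 2, 7 of them rose and 1 fell, which was *CFI*, complement factor I (-1.19). The lists for smooth muscle, elastic fibre, erythroid cells, T and B cells, neuroendocrine cells and neurons, glia, ion and water transport, WNT, hedgehog, HOX, IGF, glucocorticoid response, hypoxia and glycolysis, immediate early genes, striated muscle, liver and adipose each gave 0 genes past 0.05, with medians from -0.82 (glia) to 0.59 (liver). The median changed sign without CF day 120 replicate 2 for liver (to -0.40) and WNT (from -0.11 to 0.11). It went from -0.11 to -0.80 for neuroendocrine cells and neurons, from 0.20 to 0.46 for elastic fibre and from 0.69 to 0.09 for mesothelium. It lay nearer 0 without that library for T and B cells (0.41 to 0.27), hedgehog (-0.28 to -0.13), IGF (-0.34 to -0.06), adipose (-0.36 to -0.11) and hypoxia and glycolysis (0.12 to 0.08).

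Over all genes, the share called went from 0.46% to 3.06% (1.76% higher, 1.3% lower) when CF day 120 replicate 2 was left out. Several of these lists gained calls in that fit. Those of the WNT (48 tested) and immediate early (32) lists lay near that share. The fit held 19 neuroendocrine and neuron, 24 elastic fibre, 31 smooth muscle, 33 ion and water transport, 21 glucocorticoid response, 30 hypoxia and 16 hedgehog genes. Of the neuroendocrine and neuron list, *GRP*, a peptide of neuroendocrine cells (-4.69), *UCHL1* (-2.57), *SCG5* (-2.44) and *SNAP25* (-1.6) fell and *STMN2* rose (1.65). Of elastic fibre genes, *MFAP5* (1.54), *FBLN5* (0.91) and *MFAP4* (0.79) rose, and of smooth muscle genes, *PLN* (1.01) and *NPNT* (0.68). Among ion and water transport genes, *SCNN1A* (1.93) and *AQP1*, a water channel of capillaries (1.17), rose, whereas *CFTR* (-0.88) and *ATP1B1*, a subunit of the sodium pump (-0.70), fell. Of the glucocorticoid response list, *DUSP1* (1.33) and *KLF9* (1.28) rose and *FKBP5* fell (-0.97). *ADM* (1.6) and *EPAS1* (1.43) of the hypoxia list, *FZD4* (0.95) of WNT, *DISP1* (1.13) of hedgehog and *GADD45B* (0.87) of the immediate early list rose, and *WNT2* fell (-1.69). The lists for erythroid cells, T and B cells, glia, HOX, IGF, striated muscle, liver, adipose and motile cilia still gave none.

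Genes that the study named for this region or interval were looked up too. *SCNN1A*, the alpha subunit of the epithelial sodium channel, had 2.98 to 5.12 CPM at day 100. At day 120 it had 15.7 and 10.2 CPM in WT and 1.91 CPM in CF replicate 2, while CF replicate 1 was level with the higher WT library. The change was 1.52 (adjusted p = 0.407), and without CF day 120 replicate 2, the 1 low day 120 library, it was 1.93 (adjusted p = 0.00890). The chloride channel gene *ANO1*, the anion transporter gene *SLC26A9*, the sodium channel gene *SCNN1B* and the tight junction gene *TJP1* had changes of 0.59, 0.27, 0.95 and 0.46, none of which passed with or without that library.

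Among genes of inflammation, *C3*, the central complement component, had 111 and 89.1 CPM in WT and 46.7 and 70.2 CPM in CF at day 100, and 212 and 203 CPM in WT and 519 and 686 CPM in CF at day 120 (2.21, adjusted p = 0.121). The days did not overlap in either genotype. A complement C4 gene (*LOC101123672*, a duplicated family whose reads may be shared between copies) had a change of 1.57 (adjusted p = 0.0548). *CXCL8*, the neutrophil chemokine, had 0.178 to 0.509 CPM at day 100, and 3.91 and 4.13 CPM in WT and 6.38 and 0.781 CPM in CF at day 120 (3.46, adjusted p = 0.0788). *KNG1*, kininogen, and *CHI3L1*, a chitinase-like protein, had changes of 2.68 and 2.09 (adjusted p = 0.150 and 0.122). All 5 passed without CF day 120 replicate 2, with adjusted p-values of 0.00488 to 0.0487. *BPIFA1* had 14 reads in WT and 9 reads in CF day 120 replicate 1 and none in the other 6 libraries, and it was too low to be tested.

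The CF day 120 replicates were then checked one by one. Over 13991 genes above 1 CPM on average, replicate 2 differed from replicate 1 by a root mean square of 1.67 (log2 CPM), against 0.74 in CF at day 100, 0.48 in WT at day 100 and 0.45 in WT at day 120. Of these genes 2297 were more than 2 log2 units apart, 828 higher and 1469 lower in replicate 2, against 69 to 289 in the other 3 pairs. *ARRDC4*, an arrestin-domain protein, had 33.5 CPM in CF day 120 replicate 1 and 0.0459 CPM in replicate 2, whereas the other 6 libraries held 10.7 to 27.5 CPM. *PEG10*, an imprinted gene derived from a retrotransposon, had 167 CPM in replicate 1 and 0.494 CPM in replicate 2. *ZBTB46*, a transcription factor, had 10.2 CPM and 0 CPM. The uncharacterised *LOC101108035* and *LOC105606136* had 44.2 and 29.9 CPM in replicate 1 and 0 in replicate 2.

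In the other direction, *COL2A1*, the main collagen of cartilage (chromosome 3, 138202874 to 138233138), had 71.3 CPM in replicate 2 and 0.983 CPM in replicate 1. It had 43.5 and 65.7 CPM in WT and 58.1 and 62.9 CPM in CF at day 100, and 1.58 and 2.04 CPM in WT at day 120. Replicate 2 thus stood above all 4 day 100 libraries, while the other 3 day 120 libraries were far below them. *COL2A1* did not pass with all libraries (adjusted p = 0.581), and without replicate 2 it was the 1 DEG (0.0054% of genes, -5.32, SE 0.31, adjusted p = 0.000673). *KRT5*, the basal cell keratin, had 1.01 and 57.0 CPM in replicates 1 and 2. *PI3*, the elastase inhibitor elafin, had 3.15 and 269.9 CPM, and the uncharacterised *LOC101117431* had 0.147 and 17.5 CPM. In the distal lung library numbered CF day 120 replicate 2, *COL2A1*, *KRT5*, *PI3* and *SCGB3A2* had 0.677, 0.846, 1.73 and 36.5 CPM.

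The difference between the CF replicates followed gene length. Across genes above 1 CPM, its rank correlation with exonic length was -0.47 at day 120 and -0.57 at day 100 in CF, against -0.18 and -0.17 in WT. The same measure in distal lung was -0.55 at day 120 and -0.27 at day 100 in CF, against -0.19 and -0.10 in WT. The points of each value share 1 pair of libraries, so these values are a description. Of 5 groups of genes of about equal number ordered by length, the shortest had a median difference of 1.21 at day 120 and 0.66 at day 100 in CF, and the longest had -0.81 and -0.42. In WT the medians of all 5 groups lay between -0.12 and 0.11. The genes that rose had a median length of 3999 bases and those that fell 4019 bases, against 2901 bases over all genes. With a smooth trend on gene length removed from each library, 356 genes passed 0.05, among them 85 of the 86, and the part of gene length in the other values was not tested.

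**Figure D3:**
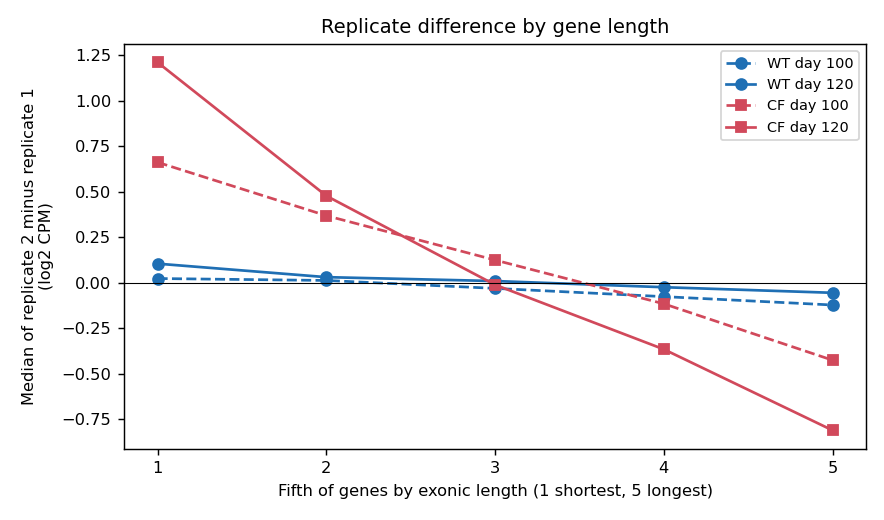
Median difference between replicate 2 and replicate 1 (log2 CPM) in each of 5 groups of 13991 genes ordered by exonic length, from shortest to longest, for the 4 pairs of proximal libraries. The CF day 120 line runs from 1.21 to -0.81 and the CF day 100 line from 0.66 to -0.42, while both WT lines stay between -0.12 and 0.11.

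Changes found in WT alone were looked up in each CF library, since these comparisons share no library. By the labels they may share an animal, since CF day 100 replicate 2 has the animal name of a WT day 65 library. In a fit of the 10 WT proximal libraries, 467 genes (2.57%) passed 0.05, 239 (1.31%) higher and 228 (1.25%) lower at day 120, and 14 (0.077%) were DEGs. Of the 239 genes, 227 (95.0%) were above the CF day 100 mean in CF day 120 replicate 1 and 172 (72.0%) in replicate 2. Over all genes these shares were 48.8% and 48.3%. Of the 224 lower genes present in the CF table, 208 (92.9%) were below it in replicate 1 and 194 (86.6%) in replicate 2, against 50.8% and 51.3% of all genes. The WT medians were 1.24 and -1.24. Those in CF replicate 1 were 1.04 and -0.95, and those in CF replicate 2 were 0.52 and -1.12. A fit of the 10 CF libraries gave 4 genes (0.0203%) past 0.05, 3 higher, among them *DPP4* and *C3*, and 1 lower, *HS6ST2*, and no DEG.

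**Figure D4:**
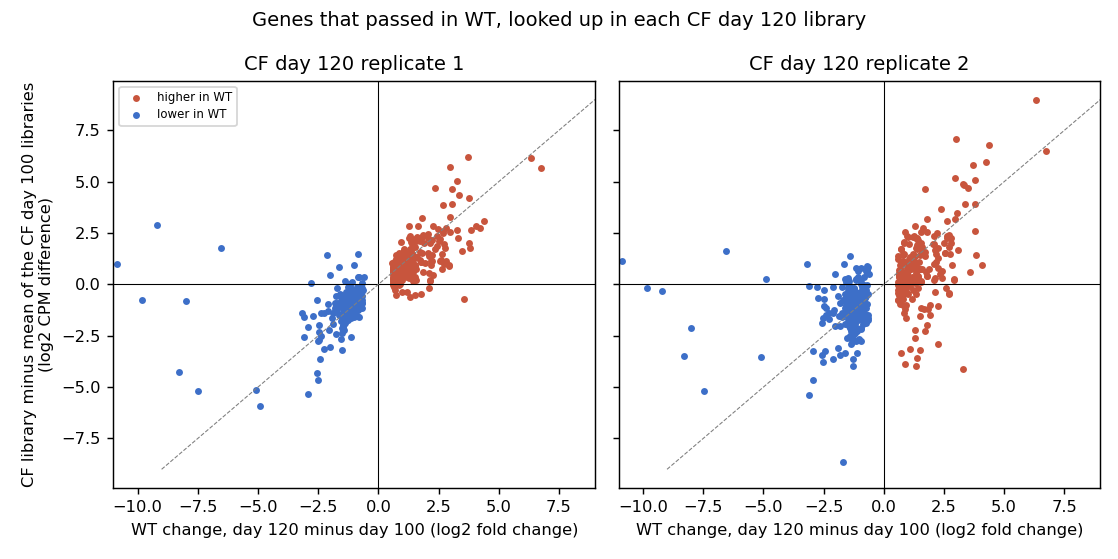
Each point is 1 gene that passed 0.05 in the WT time course, with its WT log2 fold change on the horizontal axis and, on the vertical axis, the log2 CPM of 1 CF day 120 library minus the CF day 100 mean (left, replicate 1, and right, replicate 2). Of the genes higher in WT, 95.0% lay above 0 in replicate 1 and 72.0% in replicate 2.

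No difference between the genotypes in the change from day 100 to day 120 passed 0.05 by edgeR's quasi-likelihood test, in which 299 genes (1.6%) had an unadjusted p under 0.05 and the smallest adjusted p was 1.00. DESeq2 gave 25 genes at 0.05 and 4 at 0.001 (*SFTPA1*, *APOB*, *SEC14L5* and *EPYC*). Without CF day 120 replicate 1, CF at day 120 was replicate 2 alone, the library that stood apart. No count of genotype differences is given for that fit. *SFTPA1* had a change of 3.69 in WT and 6.02 in CF. In CF alone within the 8 libraries it was the 1 gene (0.00535%) past 0.05 (adjusted p = 0.0109), against 487 genes by DESeq2, 49 by edgeR without CF day 120 replicate 2 and 4094 without replicate 1. In WT alone none passed (961 genes with an unadjusted p under 0.05, and 281 genes past 0.05 by DESeq2). *LUZP2*, a leucine zipper protein, had 6.76 and 7.69 CPM in WT at day 100 and 30.7 and 32.8 CPM at day 120, whereas CF had 54.3 and 50.4 CPM and then 59.1 and 39.5 CPM. *APOB*, the main apolipoprotein of low-density lipoprotein, had 12.2 and 9.61 CPM in WT at day 100 and was at 0 in WT at day 120, and it had at most 0.0689 CPM in CF.

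The change was set beside that in distal lung, which was taken from the same animals. In the 8 distal libraries 1462 genes (7.84%) passed 0.05 and 81 (0.434%) were DEGs. The root mean square difference between distal replicates was 0.24 to 0.48 in WT and CF at day 100 and WT at day 120, and 0.78 in CF at day 120. The test of the difference between regions, over 19235 genes, gave 0 genes past 0.05, with 420 genes (2.18%) at an unadjusted p under 0.05. All 86 genes had the same sign in distal lung, and 85 had an adjusted p of 0.05 or less in the distal test, counted without the fold limit. The share of all genes with the same sign in both regions is not given. *TFF2* was among the 5 genes with the smallest p, with distal levels of 0.461 to 0.957 CPM at day 100 and 18.6 and 11.9 CPM in WT and 21.5 and 79.7 CPM in CF at day 120. Its proximal change exceeded the distal one by 1.85 (adjusted p = 0.550). *CDS1*, an enzyme of phospholipid synthesis, had 48.4 to 79.8 CPM in all 8 proximal libraries. In distal lung *CDS1* had 107 to 139 CPM at day 100 and 46.2 to 53.5 CPM at day 120 (difference of the changes 1.02, adjusted p = 0.636). *MUC15*, a membrane mucin, had a difference of 1.34 (adjusted p = 0.550).

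Across all 20 proximal libraries, normalized together, the interval was placed in the whole time course. The mean CPM of *SFTPA1* was 0.284, 2.34, 30.5, 953 and 4252 at days 65, 80, 100, 120 and 147. *AQP5* had means of 0.511, 2.77, 12.9, 82.7 and 191 CPM, and *AOX1* 27.9, 34.7, 72.6, 252 and 626 CPM. These 3 genes were higher at each later day. Of the 45 genes that rose, 37 had a higher mean at day 100 than at day 80, and 35 a higher mean at term than at day 120. The genes were chosen on their day 100 and day 120 values. No share over all genes is given, so these counts, like those of the falling genes, describe the calls.

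*SOX9* had means of 105, 124, 52.2, 10.5 and 10.4 CPM, *TRIM71* 7.52, 9.55, 4.86, 0.463 and 0.0932 CPM, and *NUSAP1* 114, 97.4, 75.1, 33.3 and 18.1 CPM. Of the 41 genes that fell, 7 had a higher mean at day 100 than at day 80 and 8 a higher mean at term than at day 120. *CYP1A1* was one of these 8, with means of 5.38, 2.23, 5.62, 0.174 and 29.1 CPM. Its term mean rests on WT replicate 2, with 114 CPM, while WT replicate 1 had 2.65 CPM and both CF libraries were at 0. WT term animals were born naturally, so the last interval differs from the earlier ones in birth as well as age.

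**Figure D5:**
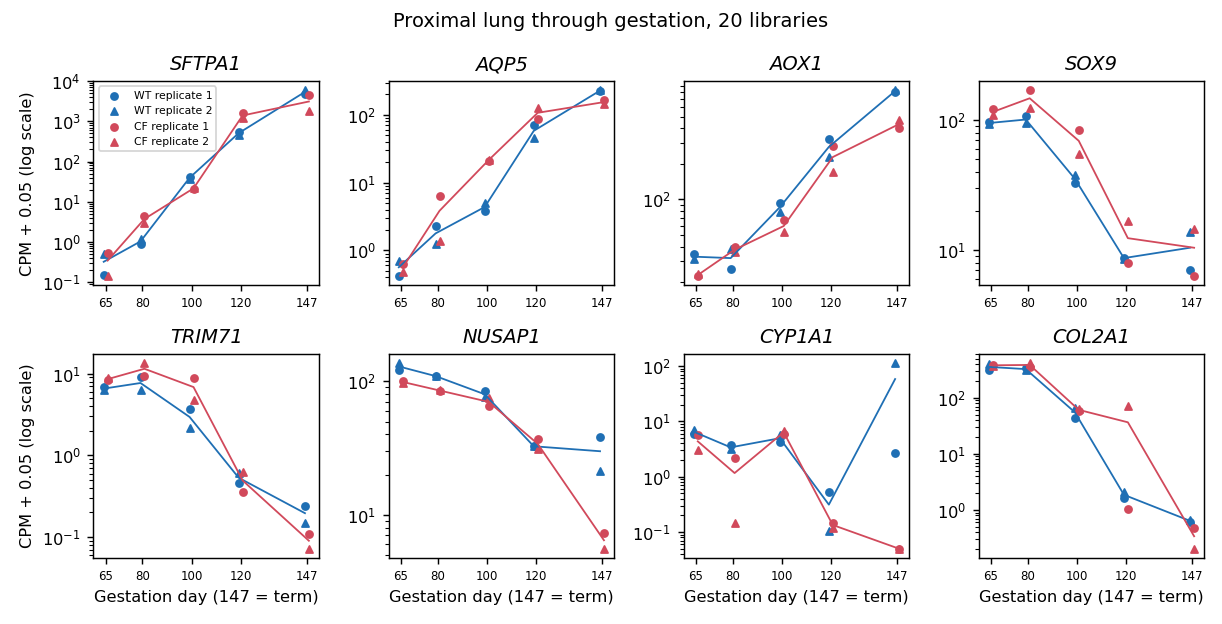
CPM plus 0.05 (log scale) of selected genes in the 20 proximal libraries by gestation day, with WT and CF in different colours and replicates 1 and 2 as circles and triangles. *SFTPA1* climbs from a mean of 30.5 CPM at day 100 to 953 CPM at day 120, while *SOX9* drops from 52.2 to 10.5 CPM.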

How the data were processed

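Paired reads of 100 bases were aligned by the authors with STAR (2.7.0e_0320 in the study's methods, 2.6 in the submitters' processing notes) against Oar_v4.0, assigned with featureCounts 1.6.3, and compared with edgeR 3.34.1. They deposited raw counts of 24478 genes. The annotation release and strand setting are not given in the sources used here. Even numbers made up 73.6% to 85.8% of the counts of 1 to 20, which is how tables look when each mate adds a count.

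The fits used edgeR 4.0.16 under R 4.3.3 (filterByExpr at a minimum count of 10 and minimum total of 15, TMM, glmQLFit, glmQLFTest, Benjamini-Hochberg adjustment), with day and genotype as terms. Interactions tested genotype and region, the latter with the animal as a block. Animals were taken from the titles, so WT day 100, with 1 animal name in the labels, counted as 2 blocks. For list medians and single-library values, 2 was the prior count of log2 CPM. The script was tested on simulated data. The members and the 33 gene lists were chosen with earlier results of these data known. Genes named were the 10 largest rises and 10 largest falls among called genes whose mean log2 CPM was at least 1, with a symbol not beginning with LOC and no overlap between days, up to 4 genes per list with the smallest p, genes the study names, the 5 genes with the smallest p in each interaction, and the 5 furthest apart in each direction between the CF day 120 replicates. The limit for the first of these was an adjusted p of 0.001 and was moved to 0.05 after the values were seen, since no gene passed it. 1 gene that this rule names is not reported here. *THBD* and the genes called only in an alternative were named after their values were seen.

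Alternatives were RLE, DESeq2 1.42.0, glmTreat, an adjusted p of 0.01, no filter, all 20 libraries, 1 mean per condition, a replicate block, WT day 100 summed and each library left out. After seeing the data, robust and bias-adjusted quasi-likelihood, limma 3.58.1 voom with library weights, removal of a lowess trend on gene length (span 0.3), removal of both CF libraries numbered 2, RLE without CF day 120 replicate 2, and fits within each genotype's 10 libraries were added.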

Additional observations from a re-analysis of the deposited data

Results flagged for a closer look

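Within each group of 4 libraries of a day, 130 groups were searched for a library far from the others by Dixon's test on log2(CPM + 0.5), and 14 were found. Chance alone gives about 1 in 20 groups, which is no fair measure here. Each group mixes WT and CF libraries, and many of the genes were named from these same data. *ARRDC4*, *PEG10* and *COL2A1* were named for the distance between the CF day 120 replicates. Outside the day 120 groups of genes named for that distance, 11 of 123 groups were found. CF day 120 replicate 2 was the library apart in *ARRDC4* (0.0459 CPM, others 23.6 to 33.5), *PEG10* (0.494 CPM, others 94.7 to 167), *COL2A1* (71.3 CPM, others 0.983 to 2.04) and *SOX9* (16.5 CPM, others 7.94 to 8.64). CF day 120 replicate 1 was apart in *UHRF1* (47.6 CPM, others 21.9 to 23.9) and *CDS1* (48.4 CPM, others 63.0 to 65.7). At day 120, WT replicate 2 was low in *PDE6A* (3.91 CPM, others 8.88 to 9.85) and WT replicate 1 was high in *CYP1A1* (0.467 CPM, others 0.0551 to 0.0983).

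At day 100, CF replicate 1 was low in *SCNN1B* (6.56 CPM, others 13.9 to 15.6) and in *LOC105605403* (15.5 CPM, others 30.6 to 32.0). WT replicate 1 was high in *EMCN* (111 CPM, others 86.3 to 87.9) and *PKHD1L1* (2.54 CPM, others 1.06 to 1.11) and low in *THBD* (62.5 CPM, others 91.3 to 92.2), and WT replicate 2 was low in *PDE6A* (0.591 CPM, others 0.978 to 1.06).

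*LOC105605834* was lower at day 120 in both WT libraries and higher in both CF libraries. It had 34.5 and 37.3 CPM in WT at day 100 and 14.1 and 8.65 CPM at day 120, whereas CF had 18.2 and 25.1 CPM and then 38.9 and 41.3 CPM. Its difference between genotypes of 2.54 did not pass the edgeR test (adjusted p = 1.00). The rise of *SFTPA1* was larger in CF by 2.35 in DESeq2 (adjusted p = 0.000128), and in edgeR's quasi-likelihood test this difference did not pass.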

How the results depend on the processing

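None of the 86 genes reversed direction under the alternatives in which each was compared singly, which leaves out glmTreat, the 0.01 limit and RLE without CF day 120 replicate 2, and the median over all genes moved by less than 0.1 (log2) under every scaling. RLE, no filter and robust quasi-likelihood left both counts of the shared change within 1.5 times, and an adjusted p limit of 0.01 gave 0 genes. At 0.05 the 86 genes became 942 by DESeq2, 7 by glmTreat, 483 with all 20 libraries, 15 with 1 mean per condition, 0 with WT day 100 summed, 136 with bias-adjusted quasi-likelihood, 1020 with voom weights, 356 with the length trend removed, 1057 without both CF libraries numbered 2 and 562 with RLE without CF day 120 replicate 2. Higher genes were 45 of 86 in the reported fit, 210 of 483 with all 20 libraries, 7 of 7 by glmTreat, 13 of 15 with 1 mean per condition and 7 of 7 without WT day 120 replicate 2. At 0.001 the counts were 357 by DESeq2, 32 with all 20 libraries, 11 with voom weights, 9 without both CF libraries numbered 2 and 1 with RLE without CF day 120 replicate 2. With 1 library left out, the counts ran from 0 to 567 at 0.05 and from 0 to 1 at 0.001. The cause of these changes was not tested.

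In WT alone, DESeq2 gave 87 genes at 0.001 and 281 at 0.05, all 20 libraries 55 at 0.05, and leaving out 1 library 0 to 81 at 0.05 (81 without CF day 120 replicate 2 and 58 without replicate 1). In CF alone, DESeq2 gave 137 and 487, no filter 6 at 0.05, all 20 libraries 4 and 92, and leaving out 1 library 0 to 1 at 0.001 and 0 to 4094 at 0.05 (4094 without CF day 120 replicate 1 and 49 without replicate 2). A condition left with 1 library is assumed to vary like the others. The genotype difference gave 4 and 25 by DESeq2 and 0 to 1005 at 0.05 with 1 library left out. The region difference gave 0 genes under each alternative run, with or without the replicate block.

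No fetus was sampled at both days, so replicate numbers pair no animals across days, and the block is a description. With a replicate block the shared change gave 242 genes at 0.05 and 0 at 0.001. Differences between replicates 2 and 1 at day 100 and at day 120 correlated at 0.83 across genes in CF and 0.05 in WT.

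With 2 libraries per condition, of which WT ones were shallower than CF ones, genes of low count and small changes are the least precise, and a gene that did not pass is not shown to be unchanged.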

Other observations

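The summed level of the oncofetal list, which holds *PEG10* and other genes of fetal growth and RNA binding, was lower in both CF libraries numbered 2 than in the other 6. It was 2992 and 3526 CPM in WT at day 100, 2776 and 3263 CPM in WT at day 120, 4345 and 1703 CPM in CF at day 100 and 3197 and 1271 CPM in CF at day 120. *PEG10* itself had 599.9 CPM in CF day 100 replicate 1 and 35.7 CPM in replicate 2, against 94.7 to 205 CPM in the 4 WT libraries.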
